A study of Homo sapiens with 4 samples.

Results

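Peaks of binding labelled as that of HNF1, a family of homeodomain transcription factors of liver, kidney and gut, were examined at 6 genes of intestinal bile acid handling, namely NR1H4, NR5A2, SLC10A2, SLC51A, SLC51B and FGF19. The members were all peaks of the 2 deposited lists whose midpoint lay within the gene or about 50 kb to either side of it, in hg19 coordinates. This gave 9 of 5060 peaks in replicate 1 and 12 of 4955 peaks in replicate 2, which joined into 14 of 7108 distinct regions.

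The series holds 4 chromatin immunoprecipitation sequencing (ChIP-seq) libraries of Caco2 cells, of which 2 are HNF1 immunoprecipitations and 2 are inputs for which no antibody was used. Caco2 is an established human line from a colorectal adenocarcinoma that serves as a model of intestinal epithelium. All 4 libraries came from cells grown in low-glucose medium with serum, with no treatment, genetic change or state of differentiation named in the labels. The study asked what HNF1 does for gene expression in intestinal epithelial cells, and the files show where peaks lay, with no measure of expression. The antibody field names HNF1, whereas the extraction text names an antibody to FOXA2, so the target is called HNF1 here by its label only. The catalogue number in the antibody field, sc-6554, was not checked against a record of its supplier, and whether these are HNF1 or FOXA2 peaks was not tested. Each immunoprecipitation has 1 peak list, called against the input with the same replicate number, so the lists serve as each other's replicate check and no statistical test between groups was possible. Replicate 1 held 11931439 tags and replicate 2 held 18469659 tags.

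Bile acids are taken up from the lumen of the ileum, carried across the enterocyte and returned to the liver through the portal blood. SLC10A2 (the apical sodium-dependent bile acid transporter) brings them in at the brush border, and SLC51A and SLC51B (organic solute transporter alpha and beta) together form the transporter that lets them out at the basolateral side. Inside the cell they activate the nuclear receptor NR1H4 (farnesoid X receptor, FXR), which induces FGF19, a secreted hormone that lowers bile acid synthesis in the liver. NR5A2 (liver receptor homolog 1) is a nuclear receptor that acts on genes of bile acid and steroid metabolism and of the intestinal crypt. NR1H4 and NR5A2 are known to be transcribed from more than 1 start site.

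The promoters of the loci with peaks, and that of SLC10A2, which had none, are shown to let the letters near their start sites be read beside the peaks. They come from RefSeq on GRCh38.p14, and each runs from 250 bases before the start site to 50 bases after it, so that base 251 is the start. Of the 6 genes, 5 had a promoter in the table, with 6 promoters in all. Capitals mark stretches that match the HNF1 palindrome with up to 3 mismatches, or GTTAAT or the forkhead (FOXA) motif TGTTTAC on either strand. The palindrome is the consensus of HNF1 factors and consists of GTTAAT, any 1 base, and ATTAAC. The promoter of the upstream NR5A2 start site is at chr1:200027460-200027759 and that of the downstream one at chr1:200042341-200042640. The promoter of NR1H4 is at chr12:100503110-100503409 and that of SLC51B at chr15:65045137-65045436, all on the plus strand. The SLC10A2 promoter is at chr13:103066368-103066667 on the minus strand.
NR5A2 upstream start: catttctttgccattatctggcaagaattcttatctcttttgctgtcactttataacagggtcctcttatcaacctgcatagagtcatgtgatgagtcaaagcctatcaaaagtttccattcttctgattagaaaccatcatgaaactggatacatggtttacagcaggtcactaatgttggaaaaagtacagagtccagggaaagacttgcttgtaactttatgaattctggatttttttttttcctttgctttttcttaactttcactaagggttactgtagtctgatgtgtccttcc
NR5A2 downstream start: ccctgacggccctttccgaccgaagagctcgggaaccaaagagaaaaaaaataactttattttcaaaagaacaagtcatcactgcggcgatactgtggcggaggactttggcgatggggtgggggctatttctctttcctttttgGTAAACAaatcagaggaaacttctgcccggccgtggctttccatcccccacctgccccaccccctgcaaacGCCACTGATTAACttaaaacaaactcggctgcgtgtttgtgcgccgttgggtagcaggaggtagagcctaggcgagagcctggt
NR1H4: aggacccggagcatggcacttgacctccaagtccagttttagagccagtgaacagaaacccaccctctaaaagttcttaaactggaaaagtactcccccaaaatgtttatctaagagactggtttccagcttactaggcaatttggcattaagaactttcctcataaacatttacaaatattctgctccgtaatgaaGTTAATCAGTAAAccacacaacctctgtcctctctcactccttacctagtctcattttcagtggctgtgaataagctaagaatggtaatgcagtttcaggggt
SLC51B: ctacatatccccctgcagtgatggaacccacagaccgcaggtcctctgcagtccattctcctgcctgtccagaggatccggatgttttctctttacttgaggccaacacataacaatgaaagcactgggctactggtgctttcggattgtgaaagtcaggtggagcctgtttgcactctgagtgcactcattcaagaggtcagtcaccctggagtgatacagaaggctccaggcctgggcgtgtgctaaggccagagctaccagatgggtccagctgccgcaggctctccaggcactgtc
SLC10A2: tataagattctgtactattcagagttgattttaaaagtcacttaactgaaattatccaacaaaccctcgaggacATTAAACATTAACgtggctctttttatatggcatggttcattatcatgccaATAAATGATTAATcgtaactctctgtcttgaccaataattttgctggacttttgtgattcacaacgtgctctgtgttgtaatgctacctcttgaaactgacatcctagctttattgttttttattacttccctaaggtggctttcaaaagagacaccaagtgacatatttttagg

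Of the 6 member promoters, 3 held GTTAAT, against 6.88% of the 35116 promoters in the table, and the same 3 held a stretch like the palindrome, against 7.56%. They were those of NR1H4, SLC10A2 and the downstream start of NR5A2. In NR1H4 the stretch GTTAATCAGTAAA, with 2 mismatches, began 53 bases before the start. In SLC10A2 there were a pair of such stretches, ATTAAACATTAAC with 2 mismatches beginning 176 bases before the start and ATAAATGATTAAT with 3 mismatches beginning 125 bases before it. The downstream NR5A2 promoter held GCCACTGATTAAC, with 3 mismatches, beginning 34 bases before the start. The forkhead motif TGTTTAC stood in 1 of the 6, the downstream NR5A2 promoter, against 3.42% of all promoters. The GATA motif AGATAA stood in those of NR1H4 and of the upstream NR5A2 start, against 10.3% of all. TTTATNG, a motif of CDX factors, stood in that of SLC10A2, against 9.73% of all, and CAAAGTCCA, a motif of HNF4 factors, stood in none of the 6, against 0.384% of all. The SLC51B and SLC51A promoters held none of these motifs on either strand. GTTAAT can lie inside the longer palindrome, so these counts overlap. A list of 34 other bile acid genes had 27 in the table, with 37 promoters. Of these 37, 7 (18.9%) held GTTAAT and 11 (29.7%) a stretch like the palindrome, both above the shares of all promoters. The member counts rest on 6 promoters of 5 genes, and no interval was computed for them. A match describes letters and does not show that a factor binds there.

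Peaks lay at 3 of the 6 loci, NR5A2, SLC51B and NR1H4, and none lay in the windows of SLC10A2, FGF19 and SLC51A in either list. NR1H4 dropped out among peaks scored at or above the median of their list, where it had 0 in both, and with 25 kb less at each window end it kept 1 peak in replicate 1 and 0 in replicate 2. NR5A2 had 4 peaks in replicate 1 and 8 in replicate 2, SLC51B had 3 in each, and NR1H4 had 2 in replicate 1 and 1 in replicate 2. In all, 7 regions were found in both lists, namely 4 at NR5A2, 2 at SLC51B and 1 at NR1H4. The other 7 were found in 1 list each, 2 in replicate 1 and 5 in replicate 2.

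**Figure D1:**
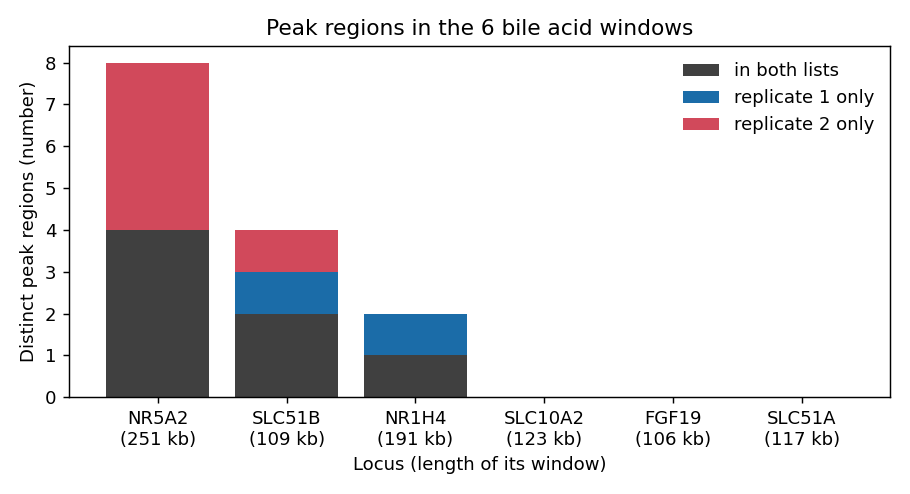
Number of distinct peak regions in the window of each of the 6 genes (bar height), split into regions in both lists, in replicate 1 only and in replicate 2 only. NR5A2 has 8 regions, SLC51B 4 and NR1H4 2, and the windows of SLC10A2, FGF19 and SLC51A are empty.

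Peaks of the lists that had at least 1 bp in common counted as shared. Of the 9 peaks of replicate 1 in the windows, 7 were shared, or 77.8% (Wilson 95% interval 45.3% to 93.7%), against 57.5% of the whole list. Of the 12 peaks of replicate 2, 7 were shared, or 58.3% (31.9% to 80.7%), against 58.6% of the whole list. With so few peaks, both shares lay within their counting error of the list as a whole. The 6 windows span 897 kb, in which replicate 1 had 10.0 peaks per Mb (exact Poisson 95% interval 4.59 to 19.0) and replicate 2 had 13.4 (6.91 to 23.4). Over the 2915 Mb between the outermost peaks of all chromosomes, the lists had 1.74 and 1.70 peaks per Mb. That background was not matched for gene content, whereas each window was placed around a gene. Without the NR5A2 window the values were 7.74 per Mb (2.51 to 18.1) in replicate 1 and 6.19 (1.69 to 15.9) in replicate 2. The latter interval includes the 1.70 per Mb of the replicate 2 list as a whole. With 50 kb more at each end of all windows the values were 6.01 and 8.68. These intervals cover counting error only and treat peaks as independent, although neighbouring peaks can belong to 1 regulatory region.

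The score of a peak is the authors' tag count for it, scaled to 10000000 tags per library and rounded, and it was used to rank peaks within a list. The median score was 12 in the list of replicate 1 and 11 in that of replicate 2. Member peaks ran from 8 to 32 in replicate 1, with a median of 10, and from 8 to 46 in replicate 2, with a median of 11.5. The median member stood above 34.4% of its list in replicate 1 and above 49.2% in replicate 2, so the loci did not hold peaks of uniformly high score. In each list 2 member peaks scored above at least 90% of all peaks, 1 at NR5A2 and 1 at SLC51B in replicate 1 and both at NR5A2 in replicate 2.

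**Figure D2:**
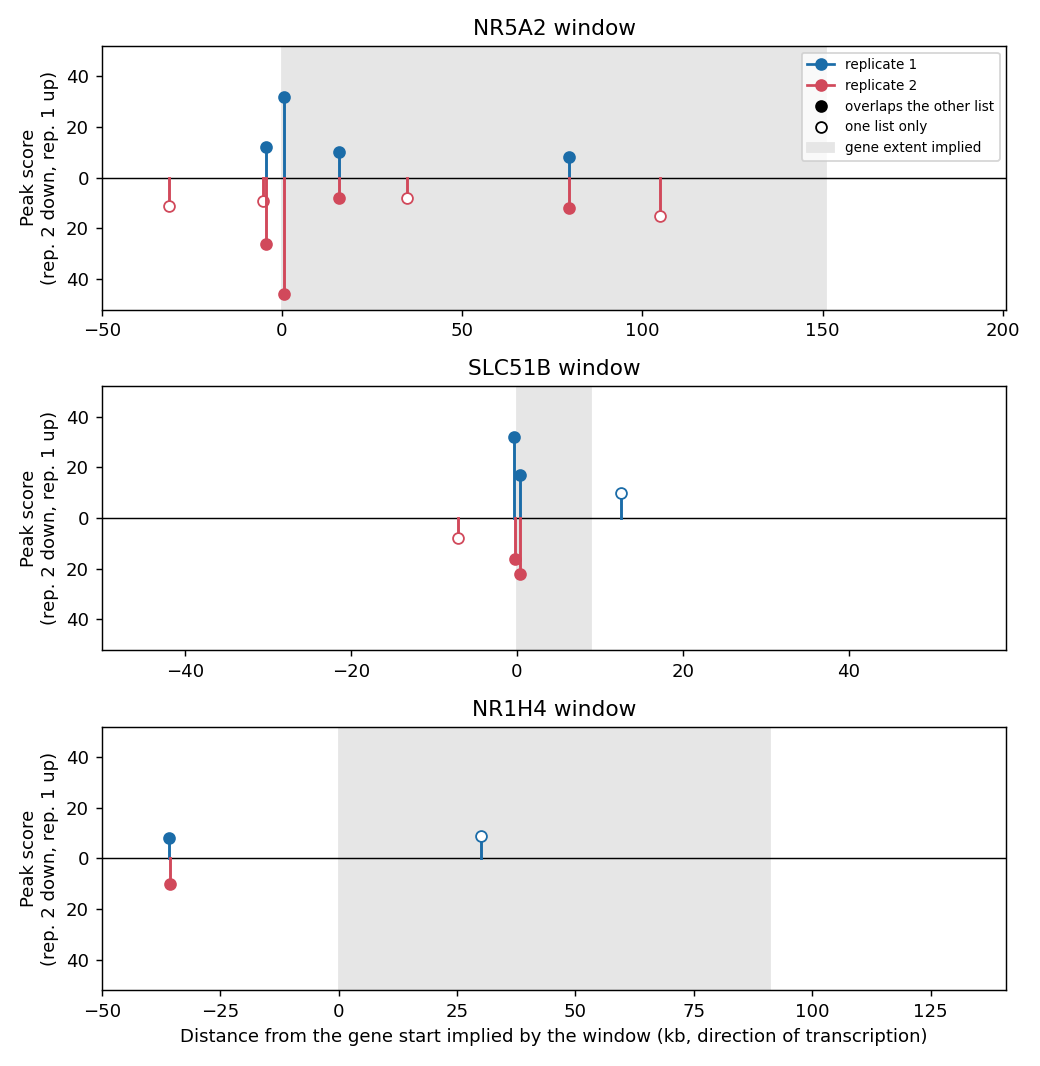
Peaks of replicate 1 (up) and replicate 2 (down) by distance in kb from the gene start implied by the window (horizontal axis), with their scores as stem heights (vertical axis), for NR5A2, SLC51B and NR1H4. Filled points overlap a peak of the other list, open points do not, and grey marks the implied gene extent. The tallest stems stand at the implied starts of NR5A2 and SLC51B, with scores up to 46 and 32, while those at NR1H4 reach 10.

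No hg19 gene annotation was used here. Distances are counted from the gene start that the window implies, 50 kb inside its edge, and are good to about 1 kb. Whether a peak lies in an exon, intron or untranslated region was therefore not determined. The gene strands were taken from the promoter table.

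NR5A2 was the member with the most peaks. Its window, chromosome 1 from 199946 to 200197 kb, held 4 regions found in both lists. Of 11601 bins of the same 251 kb length tiled along the chromosomes, 0.345% held at least 4 shared regions. These bins, and those used below for the other windows, were not matched for gene content. NR5A2 is also the window with the most shared regions of 6 chosen with earlier results known. The highest scored region, at chr1:199996440-199996666, lay within 1 kb of the implied start. It scored 32 in replicate 1, above 91.7% of that list, and 46 in replicate 2, above 98.9% of that list. Its midpoints were 9 bp apart in the replicates. It was the highest scored of the member peaks in replicate 2, and in replicate 1 it tied with a peak at SLC51B.

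A further shared region lay about 5 kb upstream of NR5A2, at chr1:199991352-199991578, with scores of 12 and 26 in replicates 1 and 2. These were middling in replicate 1, above 47.5% of the list, and high in replicate 2, above 92.3%. Replicate 2 alone had a companion peak 579 bp further upstream, at chr1:199990773-199990999, with a score of 9. Inside the gene, about 16 kb from the implied start, the region at chr1:200011588-200011814 scored 10 and 8, and the midpoints of its peaks coincided. The fourth shared region lay about 80 kb inside, at chr1:200075438-200075746, and scored 8 and 12. Its peaks overlapped by 61 bp only, with midpoints 124 bp apart, and they no longer counted as shared when 50% of both peaks had to overlap. Both of the regions inside the gene had a score of 8 in 1 list, close to the tag threshold of calling, which on the scale of the scores was 7.54 for replicate 1 and 7.04 for replicate 2. That value was not a floor, since 5.1% and 10.1% of the listed peaks scored lower, down to 6.

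The remaining 4 NR5A2 regions were found in replicate 2 only and are described although the rule for naming regions did not select them, so they were chosen after their values were seen. Besides the companion peak, these were peaks about 31 kb upstream with a score of 11, about 35 kb inside with a score of 8 and about 105 kb inside with a score of 15. The last was the highest scored member peak without a partner in the other list. Replicate 1 had no peak in the NR5A2 window that replicate 2 lacked. Replicate 2 was sequenced more deeply and called with other settings, and their part in this difference was not tested. No peak lay downstream of the implied gene end within the window. The nearest peak beyond it, of replicate 2 with a score of 9, lay about 98 kb past the implied end and was not shared.

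In the promoter table, which is on GRCh38.p14, the NR5A2 start sites were 14.88 kb apart. In the peak lists, which are on hg19, the shared region near the implied start and the next one inside the gene were 15.15 kb apart. Positions were not carried from one build to the other, so whether either region covers a promoter shown above was not determined.

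NR1H4, the bile acid receptor itself, had peaks of low score only, none of which reached the median of its list. Its window, chromosome 12 from 100817 to 101008 kb, held 1 shared region about 36 kb upstream of the implied start, at chr12:100831203-100831524. Of bins of the same 191 kb length, 15.0% held at least 1 shared region. The region scored 8 in replicate 1, above 5.10% of the list, and 10 in replicate 2, above 36.1% of the list. Its peaks overlapped by 48 bp with midpoints 137 bp apart, and this pair too was lost when 50% of both peaks had to overlap. Replicate 1 alone had a peak inside the gene, at chr12:100897105-100897247 with a score of 9. It lay about 30 kb from the implied start and was not selected by the rule for naming regions, but named after its value was seen. The nearest peak of replicate 2 was 65.8 kb away from it, so no site inside the gene stood in both lists. Whether this peak covers the NR1H4 promoter shown above, with its stretch GTTAATCAGTAAA, was not determined, since the builds differ. Outside the window, the nearest peaks lay 254 kb or more from the implied gene, so that no other peak was near. In GRCh38.p14 the RefSeq table places 1 other protein coding gene, GAS2L3, within 50 kb of NR1H4.

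Of the transporter genes, only SLC51B had peaks in its window. SLC51B, the beta subunit of the basolateral transporter, carried a pair of shared regions at its implied start. In its window, chromosome 15 from 65287 to 65396 kb, the region at chr15:65336630-65336872 lay just before the implied start, with a replicate 1 score of 32 and a replicate 2 score of 16. The region at chr15:65337239-65337468 lay just after it and scored 17 and 22. Both were within 1 kb of the implied start, which is itself good to about 1 kb only. On which side of the actual start each region lies was therefore not determined. Both had scores above the median in both lists, with the 4 peaks above 91.7%, 73.0%, 69.4% and 87.0% of their lists. The order of the pair differed between replicates, since the upstream peak was the higher one in replicate 1 and the downstream peak in replicate 2.

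The midpoints of the pair were 696 bp apart in replicate 1 and 593 bp in replicate 2. Close pairs were uncommon, since another peak of the same list lay within 1000 bp for 3.99% of peaks in the replicate 1 list and for 2.36% in the replicate 2 list. The calling did not allow neighbours closer than 284 bp in replicate 1 and 452 bp in replicate 2. At least 2 shared regions were present in 1.37% of bins of the same 109 kb length. The window held 1 further peak in each list, again named after its value was seen. Replicate 1 had a peak with a score of 10 about 13 kb beyond the implied start and outside the implied gene, at chr15:65349512-65349654. Replicate 2 had a peak with a score of 8 about 7 kb upstream, at chr15:65329833-65330059. Neither had a partner, and both scored below the median of their list.

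The RefSeq table for GRCh38.p14 places 4 other protein coding genes within 50 kb of SLC51B, namely MTFMT, RASL12, KBTBD13 and UBAP1L, and RASL12 overlaps it. The peaks are thus located at SLC51B by position and were not assigned to it by any measurement of its transcription.

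SLC51A, SLC10A2 and FGF19 had no peak in their windows. For SLC51A, the partner subunit of SLC51B, the nearest peaks of both lists formed a shared region about 283 kb from the implied gene, on the side of lower coordinates, with scores of 13 and 12. The lists thus held 2 shared regions at the beta subunit and none at the alpha subunit, a difference that was not tested. SLC10A2 carries in its promoter the stretches like the HNF1 consensus shown above, and the nearest peaks lay about 142 kb beyond the implied gene end. That shared region, at chr13:103553550-103553776, had scores of 9 and 20. For FGF19, the nearest peaks formed a shared region about 293 kb away on the side of higher coordinates, with scores of 29 and 23. Windows without any peak were the usual case, since 80.2% of bins of 117 kb, 79.5% of bins of 123 kb and 81.6% of bins of 106 kb, the lengths of the SLC51A, SLC10A2 and FGF19 windows, held no peak of either list. A list names only what passed the authors' calling, so an empty window does not show that the factor was absent there.

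**Figure D3:**
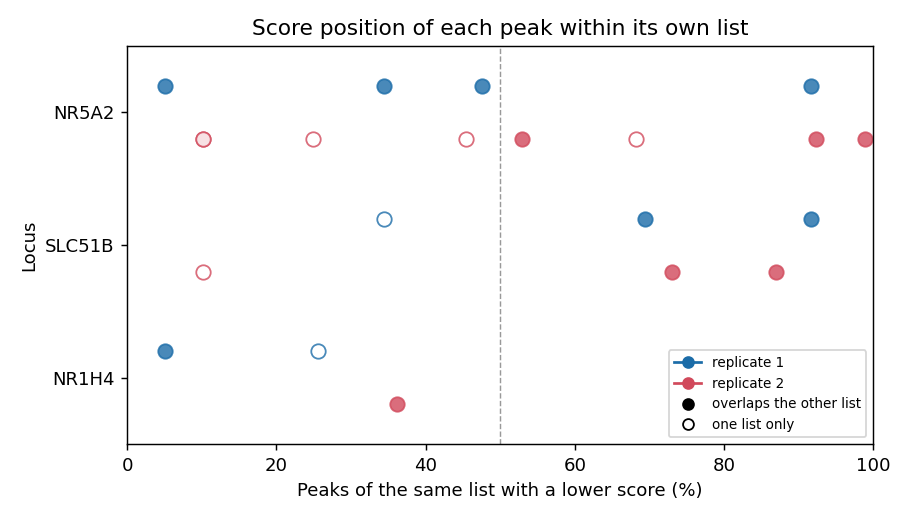
Position of each member peak within its own list, as the percentage of the list's peaks with a lower score (horizontal axis), by locus and replicate. Filled points overlap the other list, open points do not, the dashed line marks 50%, and a filled and an open point of replicate 2 at NR5A2 coincide at 10.1%. Peaks at NR5A2 spread from 5.10% to 98.9%, the shared peaks at SLC51B lie above 69%, and all peaks at NR1H4 lie below 37%.

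The 7 unshared members had scores from 8 to 15, whereas the 14 shared ones ranged from 8 to 46, and the ranges overlapped. Scores of the 7 shared pairs differed between replicates in both directions. Replicate 2 was higher in 5 of the 7 pairs, by most at the region 5 kb upstream of NR5A2, where the log2 ratio of replicate 1 to replicate 2 was -1.11. Replicate 1 was higher at the upstream SLC51B region, with a log2 ratio of 1.00, and at the NR5A2 region 16 kb inside the gene, with 0.32. The median over the 7 pairs was -0.37, and over all 2907 shared pairs it was 0.17, with the 10th percentile at -0.68 and the 90th at 1.00. Tag windows and calling settings differed between the lists, so these ratios do not compare occupancy.

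**Figure D4:**
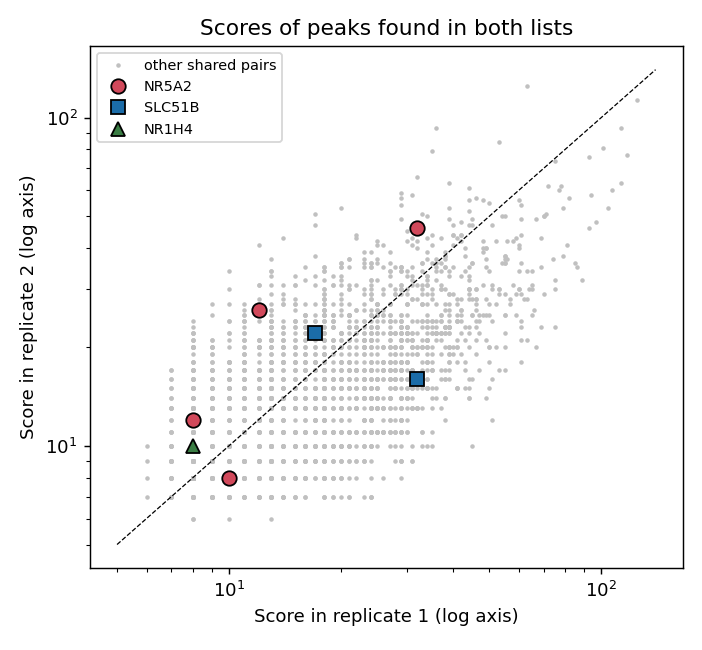
Scores of the 2907 shared pairs in replicate 1 (horizontal, log axis) and replicate 2 (vertical, log axis), with equal scores on the dashed line. The 7 pairs of NR5A2, SLC51B and NR1H4 are enlarged, with 5 above the line and 2 below it, and they lie within the cloud of the other pairs.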

How the data were processed

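Binding labelled HNF1 was measured by ChIP-seq in Caco2 cells. The submitters' processing notes name hg19, HOMER 1.2 and Bowtie 1.0.0. HOMER findPeaks was run in factor mode on each immunoprecipitation separately, with its input as control, per the file headers. The limits were a false discovery rate of 0.001 and at least 4-fold over input and over the surrounding 10000 bp. All peaks are 143 bp wide in the replicate 1 list and 227 bp wide in that of replicate 2. The deposited score is the authors' tag count scaled to 10000000 tags and rounded, and 1 tag is worth 0.838 in replicate 1 and 0.541 in replicate 2. Nothing in the labels says that the replicates were separate cultures.

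Members, windows and lists were chosen with earlier results of these data known. Positions count from 1. Peaks were counted, matched between lists, ranked by score and set beside all peaks and beside bins of equal length, with Wilson and exact Poisson 95% intervals, and no hypothesis test was made. The rule for naming regions took all 6 genes and, as more than 20 peaks lay in the windows, the shared regions. Bins and pair spacing were added after the data were seen. Planned steps that need an hg19 genome or annotation (motifs in peaks, gene features, peaks near other bile acid genes) were not run, and motifs were searched in RefSeq promoters only. Counting, matching and motif search were tested on simulated data. Python 3.11.15, numpy 2.4.6, pandas 2.3.3, scipy 1.17.1 and matplotlib 3.10.9 were used.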

Additional observations from a re-analysis of the deposited data

How the results depend on the processing

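Among peaks scored at or above their list's median, the windows held 4 peaks of replicate 1, at 4.46 per Mb and with 100% of them shared. Of replicate 2 they held 7, at 7.80 per Mb and with 71.4% shared. Partners were sought in the whole other list, so a shared peak could have a partner below the limit. This was so for the NR5A2 region about 80 kb inside the gene, with scores of 12 in replicate 2 and 8 in replicate 1. Neither the densities nor the shared shares were computed for the whole lists under the same score limit, so they have no background beside them. Without the NR5A2 window, chosen after seeing the data, the density in replicate 2 was 6.19 per Mb. Ranked within chromosomes, the median member of replicate 1 stood above 32.7% of peaks. With 25 kb less or 50 kb more at each window end, the numbers of peaks in all windows stayed within 1.5 times, but the extension lowered the density to 6.01 per Mb in replicate 1 and 8.68 in replicate 2. In single windows 22 of 24 counts under these changes did so, and the other 2 fell at NR1H4, to 1 and 0. Under the score limit 8 of 12 did, and the other 4 fell, to 0 in both lists at NR1H4 and to 2 and 5 at NR5A2. The counts that held include those of 0 at SLC10A2, FGF19 and SLC51A, which narrower windows or a score limit cannot change. Apart from these, only SLC51B held under the score limit, going from 3 to 2 in each list. The shared share ranged from 55.6% under 50% overlap to 100% in replicate 1, and from 41.7% to 75% in replicate 2. With 50 kb more at each end, the only one of these window and score settings that could add peaks, the windows of SLC10A2, FGF19 and SLC51A stayed empty. No paired analysis was possible because each immunoprecipitation has a single list and the inputs entered only through peak calling. For the same reason no replicate could be left out. Depth cannot be varied from peak lists.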
